A study of Mus musculus with 6 samples.

Results

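*Sprr1a*, *Sprr1b*, *Sprr3* and *Sprr4* were 4 of the 17554 genes in a table of RNA levels from mouse corneal epithelium. They encode the small proline-rich proteins that lie outside the larger Sprr2 group, and they were matched to the table by gene symbol. The genes had been chosen by their measured levels in the same mutant and control samples that are described here, so their values are given as a description, without a test. The samples came from 2-month-old C57BL/6 mice, 3 controls (labelled WT) and 3 *Krt14-Cre; Rela f/f* mutants (labelled Rela-/-), and the study treated each as an independent biological sample. In the mutants the Krt14 promoter drives Cre in K14+ epithelial cells and their progeny, which removes *Rela*, the gene for a canonical NF-κB subunit. Which of the alleles the controls carried is not given in the sources used here. RNA-seq reads of the 6 samples were summed per gene, and the totals lay between 19492942 and 19733834 expected counts, which are the read counts that RSEM assigns to each gene. FPKM, a level per gene length and sequencing depth, is used where genes are compared with each other.

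Small proline-rich proteins are short repeat-rich proteins of stratified epithelia. Transglutaminases cross-link them with involucrin, loricrin and other precursors under the membrane of the outermost cells, which gives the insoluble cornified envelope of skin. The genes lie together in the epidermal differentiation complex, a gene cluster expressed late in epithelial differentiation, and the Sprr1 genes are known to respond to stress and injury. The healthy cornea is a stratified epithelium that does not cornify.

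The 4 genes lay on the minus strand of mouse chromosome 3 (GRCm38), within 63.7 kb. *Sprr1b* (gene ID 20754) spanned chr3:92436809-92438817, *Sprr3* (20766) spanned chr3:92456502-92458720, *Sprr1a* (20753) spanned chr3:92483954-92485881, and *Sprr4* (229562) spanned chr3:92500263-92500493. The gaps between neighbours were 17.7, 25.2 and 14.4 kb. *Sprr1a*, *Sprr1b* and *Sprr3* each had 2 exons in the GENCODE annotation, of which the upstream one is non-coding, whereas *Sprr4* was annotated as 1 exon of 231 bases that holds a coding sequence alone. Proline codons made up 31.9% of the coding sequence of *Sprr1a*, 30.7% of *Sprr1b*, 20.6% of *Sprr3* and 17.1% of *Sprr4*, against a median of 5.28% over 21528 coding genes. The coding sequences of *Sprr1a* and *Sprr1b* were 78.9% identical, while the other pairs ranged from 30.1% to 51.3%. Despite this, no stretch of 50 bases, the read length, from the transcripts of the 4 genes occurred in a transcript of another gene, and all of their expected counts were whole numbers.

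The upstream sequences of the 3 genes that were detected are shown because they differ in known binding motifs while the genes were high in the same samples. They are taken from RefSeq (GRCm38.p6), read 5′ to 3′ on the minus strand and end just before the earlier of the RefSeq and GENCODE starts of transcription. Capitals mark matches to the AP-1 motif TGANTCA, bound by Fos and Jun dimers, and to the TATA box TATAAA, which positions RNA polymerase. The stretches are chr3:92485896-92486131 for *Sprr1a*, chr3:92438790-92439029 for *Sprr1b* and chr3:92458721-92458970 for *Sprr3*. The *Sprr1b* stretch includes 28 bases that the deposited table counts as part of the gene.
Sprr1a: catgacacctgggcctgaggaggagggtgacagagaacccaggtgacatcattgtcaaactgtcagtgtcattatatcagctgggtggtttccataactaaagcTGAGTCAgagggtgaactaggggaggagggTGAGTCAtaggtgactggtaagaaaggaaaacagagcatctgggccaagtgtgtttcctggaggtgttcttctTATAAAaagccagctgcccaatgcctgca
Sprr1b: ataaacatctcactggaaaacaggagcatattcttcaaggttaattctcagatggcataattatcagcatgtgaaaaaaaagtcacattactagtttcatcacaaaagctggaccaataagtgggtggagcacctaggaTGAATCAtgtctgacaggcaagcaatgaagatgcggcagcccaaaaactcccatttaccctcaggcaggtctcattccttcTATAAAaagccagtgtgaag
Sprr3: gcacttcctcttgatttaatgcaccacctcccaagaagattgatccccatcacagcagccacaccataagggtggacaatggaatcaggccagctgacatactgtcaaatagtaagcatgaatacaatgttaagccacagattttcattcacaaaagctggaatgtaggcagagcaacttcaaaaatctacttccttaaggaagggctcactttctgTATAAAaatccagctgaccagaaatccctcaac

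Each of the 3 stretches held 1 TATA box, a motif present on either strand in 13.6% of the 32851 RefSeq windows searched, each of 300 bases, from 250 before to 50 after a gene's start. The AP-1 motif was found 2 times upstream of *Sprr1a*, at bases -146 to -140 and -116 to -110 counted from the RefSeq start, and 1 time upstream of *Sprr1b*, at -111 to -105. It was found in no window of *Sprr3* or *Sprr4*, and 7.81% of all windows held it, 0.46% of them more than once. The Ets motif AGGAAG was found 3 times upstream of *Sprr3* and 1 time upstream of *Sprr4*, and not in the Sprr1 windows, while 35.4% of all windows held it. The Klf motif CACCC, in 57.5% of all windows, was found 4 times in *Sprr1a* and 1 time each in *Sprr1b* and *Sprr3*, with 1 of the *Sprr1a* matches overlapping an AP-1 match. The kappa B motif of NF-κB, searched in a loose form that 50.8% of windows held, and the STAT motif TTCNNNGAA, held by 8.30%, were found in none of the 4 windows. The map of these matches sets the positions side by side. A match is a stretch of letters and was not tested for binding. The annotated start of *Sprr4* is the first base of its coding sequence, so its window may not hold its promoter.

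**Figure D1:**
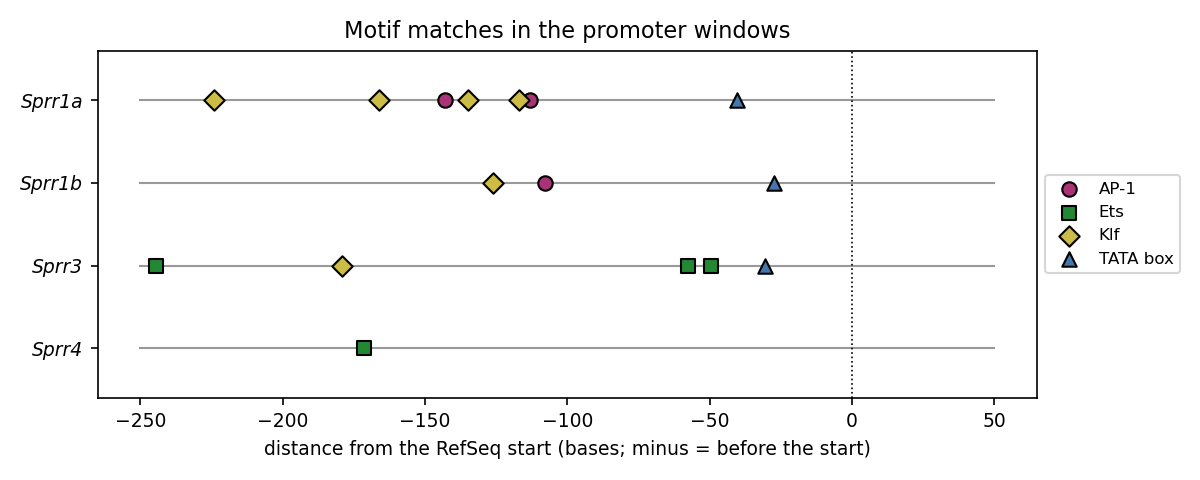
Matches to 6 motifs in the window from 250 bases before to 50 bases after the RefSeq start of each gene, with the distance from the start on the x axis in bases. The TATA box lies between -43 and -25 in *Sprr1a*, *Sprr1b* and *Sprr3*, AP-1 matches are in the Sprr1 genes, and the kappa B and STAT motifs have no match. The window of *Sprr4* is counted from its first coding base.

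*Rela* itself marked the genotypes. Its level was 36.5, 34.7 and 33.4 FPKM in the controls and 4.93, 5.53 and 5.72 FPKM in the mutants, a log2 fold change of -2.75 ± 0.085 (SE, n = 3 per group, adjusted p = 5.5e-07, edgeR).

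*Sprr1a*, a cross-linked precursor of the envelope also known as cornifin A, was the most abundant of the 4 genes in every sample. Its level was 15.3, 10.9 and 50.6 FPKM in control samples 1, 2 and 3 and 1107, 998 and 1335 FPKM in mutant samples 1, 2 and 3. The groups did not overlap, and control sample 3 stood above the other controls. The mean was 25.6 ± 21.7 FPKM in controls and 1146 ± 172 FPKM in mutants (SD, n = 3), and on the scale of TMM-normalised CPM (counts scaled to a common library size) the mutant mean was 44.2-fold higher (log2 5.47). Without control sample 3 it was 87.9-fold higher, and the lowest mutant was 19.5-fold above the highest control. In tissue RNA of this kind, more cells that express a gene and more RNA per cell cannot be told apart. Among the 17554 genes, ordered by mean FPKM, *Sprr1a* stood at rank 2652 in controls and at rank 35 in mutants, where it took 0.0764% to 0.102% of all counts.

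*Sprr1b*, the closest relative of *Sprr1a* and also a substrate of transglutaminase, had no count in any control. Its expected counts were 4880, 2537 and 4575 in the 3 mutants, which are 323, 167 and 298 FPKM. It thus went from no read in the controls to rank 236 by mean FPKM in the mutants. The mutant mean was 262 ± 83.8 FPKM (SD, n = 3). Set against a level of 3 counts in each control, which is the limit that a count of 0 allows, the mutant level was at least 1326-fold higher (log2 10.37). These limits, and the interval given for *Sprr3*, cover counting error only.

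*Sprr3*, known as esophagin and abundant in the epithelia of mouth and esophagus, was far lower. Controls 1 and 2 had 0 counts and control 3 had 1 count, while the mutants had 98, 55 and 67 counts. In FPKM these were 0, 0 and 0.05 against 4.71, 2.64 and 3.18, so the groups did not overlap here either. Over the samples of each group the ratio was 220 counts to 1, with an exact 95% counting interval of 39.1 to 8729. Against a level of 3 counts in each control the mutant mean was 24.4-fold higher (log2 4.61). The mutant mean was 3.51 ± 1.07 FPKM (SD, n = 3).

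*Sprr4*, known from skin and described there as induced by ultraviolet light, had 1 count in mutant sample 2 and none in the other 5 samples. That count equalled 0.26 FPKM, and 3 counts would equal 0.78 FPKM. It lay below the limit of detection in both groups, so a difference was not detectable at this depth and no fold is given. The annotated gene holds a coding sequence alone, so reads from any untranslated part would not be counted. The plot of levels by sample shows the 4 genes on separate axes, since their levels differ so widely.

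**Figure D2:**
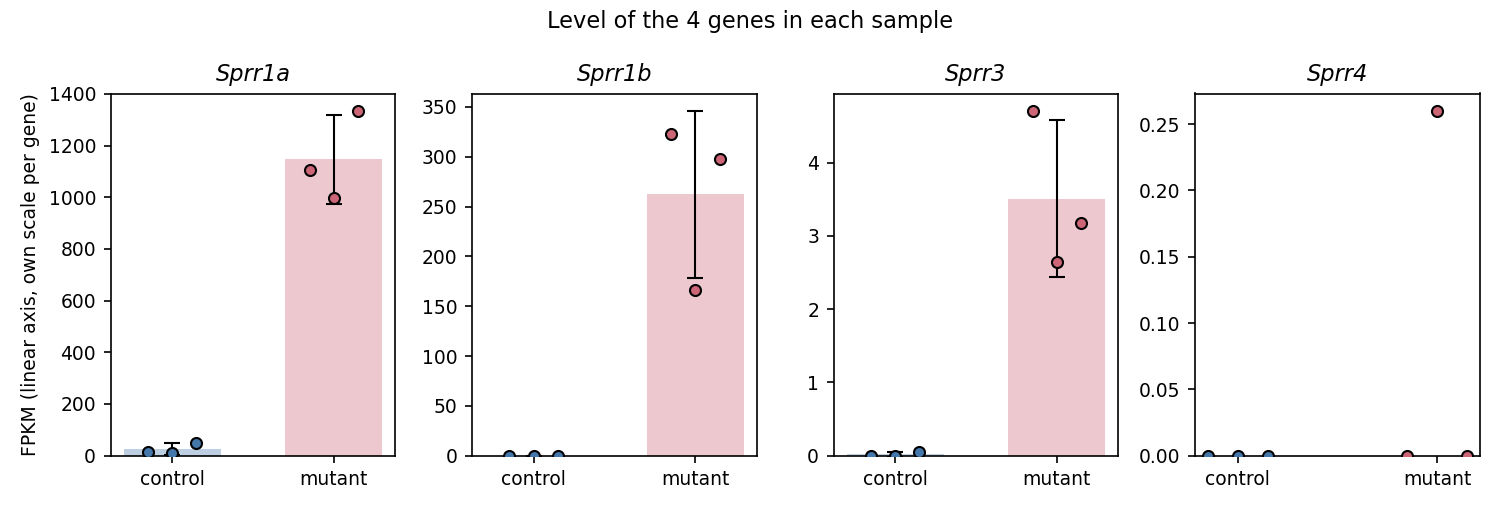
FPKM of *Sprr1a*, *Sprr1b*, *Sprr3* and *Sprr4* in 3 control and 3 mutant samples, each point 1 sample, bars the mean and error bars the SD (not drawn for *Sprr4*), on linear axes that differ between genes. Mutant samples lie at 998 to 1335, 167 to 323 and 2.64 to 4.71 FPKM in the first panels, above every control, and the 1 count of *Sprr4* is in mutant sample 2.

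The 3 detected genes kept the same order in each mutant, *Sprr1a* above *Sprr1b* above *Sprr3*, and their ranges did not overlap. In the controls only *Sprr1a* could be placed, since the others had at most 1 count. *Sprr1a* exceeded *Sprr1b* by 3.43, 5.99 and 4.48 times in mutants 1, 2 and 3 on the FPKM scale, and *Sprr1b* exceeded *Sprr3* by 68.5, 63.1 and 93.7 times. *Sprr1a* therefore made up 77.2%, 85.5% and 81.6% of the summed FPKM of the 4 genes. That sum was 1434, 1167 and 1636 FPKM in the mutants and 15.3, 10.9 and 50.6 FPKM in the controls. The spread between mutants was smallest for *Sprr1a*, with a coefficient of variation of 15%, against 31.9% for *Sprr1b* and 30.6% for *Sprr3*. Mutant sample 2 was the lowest mutant for all 3, as it was for 28.8% of all genes tested and 41.0% of those called. The highest was mutant sample 3 for *Sprr1a* and mutant sample 1 for *Sprr1b* and *Sprr3*.

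Across the table, 12667 genes had enough counts to be tested, and a gene was called where the adjusted p of edgeR was at most 0.001 and the fold change at least 2. By this rule 1.37% of tested genes were called (173 genes), 1.31% as higher in mutants (166) and 0.0553% as lower (7). Of the 4 Sprr genes, 3 were tested and all 3 were called as higher, a count that follows from how they were chosen. Over the same genes, an unadjusted p under 0.05 was reached by 15.1% as higher and 13% as lower, DESeq2 called 2.34% as higher and 0.268% as lower, and in 17.3% all mutants lay above all controls. The median log2 fold change of all tested genes was -0.0028. A gene with under 10 counts in every control, *Sprr1b* and *Sprr3* included, entered the test only through its mutant counts and so had to be higher in mutants, and such genes are set apart in the lists that follow.

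The neighbours of the 4 genes were described next. The epidermal differentiation complex, taken as the genes from *S100a1* to *S100a10*, held 53 genes of the table. Leaving the 4 Sprr genes aside, 29 were tested, of which 6 rose and none fell by edgeR, against 1.31% and 0.0553% of all tested genes. DESeq2 called 12 higher and 0 lower, against 2.34% and 0.268%. Of the 29, 7 entered through the mutants alone (*S100a8*, *Rptn* and 5 Sprr2 genes), 2 of the edgeR calls among them. All 5 of these Sprr2 genes were among the 12 that DESeq2 called, so that count was in part fixed by the filter. The DESeq2 calls were not counted apart for the other genes. Among the other 22, 4 rose, and 11 were higher and 0 lower at an unadjusted p under 0.05, against 15.1% and 13% of all tested genes. All mutants lay above all controls in 11 of the 22, against 17.3% of all tested genes, and their median log2 fold change was 0.82. The genes that rose were *Kprp*, *Crct1*, *Sprr2h*, *Rptn*, *S100a9* and *S100a4*. The count of 6 fell to 0 without control sample 1, 0 without control sample 2 and 1 without control sample 3. It was 11 without mutant sample 1 and 3 without mutant sample 2. Over all tested genes the 173 calls also fell, to 88, 36 and 56 without control samples 1, 2 and 3. They were 193 and 135 without mutant samples 1 and 2. Between *Lor* and *Ivl*, 14 of the 15 table genes were Sprr genes. Of the 8 tested there 4 were called as higher, against 1.31% of all tested genes. They were *Sprr2h* and the 3 described above, whose calls follow from how they were chosen. Apart from *Sprr1a*, the genes tested there entered only through the mutants. The plot along the complex shows the levels in gene order.

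**Figure D3:**
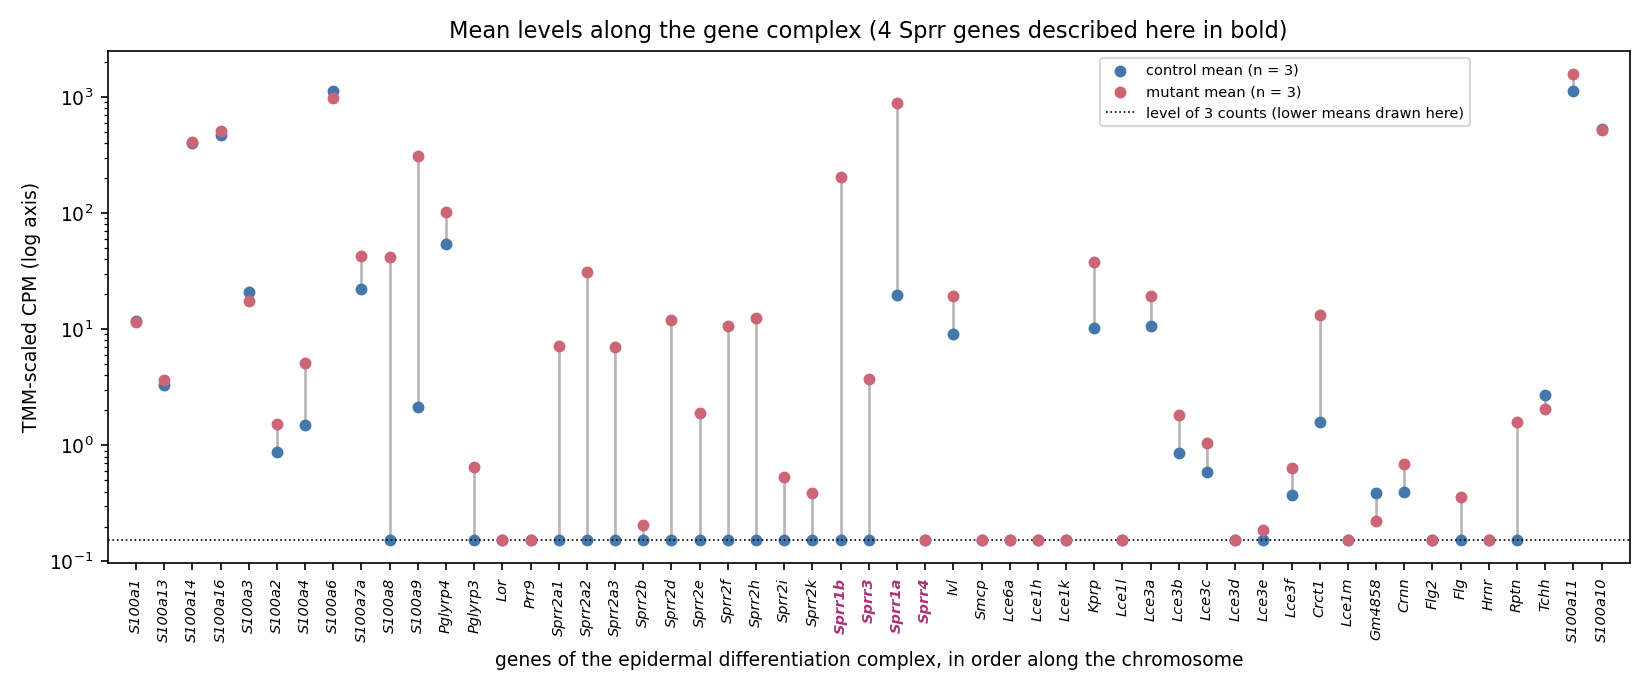
Mean TMM-normalised CPM of controls and mutants (n = 3 each, log axis) for the genes of the epidermal differentiation complex in order along the chromosome, with means under the level of 3 counts drawn at that level. *Sprr1a* and *Sprr1b* reach 877 and 204 CPM in mutants, and the Sprr2 genes lie near or under the level of 3 counts in controls.

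The Sprr2 genes, which encode shorter relatives cross-linked into the same envelope, sat directly beside *Sprr1b*. Of 10 in the table, 5 had enough counts and 1 was called, as higher, against 1.31% of all tested genes. All 5 had at most 3 counts in any control and entered the test only through the mutants, so their direction was fixed by the filter and is given as a description. The gene called was *Sprr2h*, with 0, 1 and 2 counts in controls and 425, 140 and 164 in mutants (adjusted p = 2.6e-04, edgeR), an 81.1-fold difference against a level of 3 counts. Sprr2 copies are nearly identical and the counting divides reads among them, so values of single copies are uncertain. The sum over the 10 genes was 0.507, 0.204 and 0.627 CPM in controls and 177, 41.3 and 31.4 CPM in mutants. The sum was highest in mutant sample 1, where *Sprr1b* and *Sprr3* were also highest. Calls in this group shifted with the setting. DESeq2 called 5, all higher, against 2.34% of all tested genes. With no filter on low counts 4 of 10 were called, where 217 of 17514 genes were called higher. Between 0 and 5 were called when 1 sample was left out.

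The other cornified envelope precursors were followed as the proteins that small proline-rich proteins are joined to. Of 46 named genes, 33 were in the table and 21 were tested, with a median log2 fold change of 0.83. By edgeR 5 rose and none fell, against 1.31% and 0.0553% of all tested genes. At an unadjusted p under 0.05 there were 11 higher and 1 lower, against 15.1% and 13% of all tested genes. DESeq2 called 7 higher and 0 lower, against 2.34% and 0.268%. *Rptn* entered through the mutants alone, and without it 4 of 20 rose. *Sbsn*, which encodes the envelope protein suprabasin, was at 2.95, 2.57 and 3.15 FPKM in controls and 71.8, 41.0 and 53.9 FPKM in mutants (log2 3.80 ± 0.20, SE, adjusted p = 1.1e-05, edgeR). *Kprp*, a keratinocyte proline-rich protein gene, was at 3.96, 3.62 and 3.65 FPKM against 10.02, 14.2 and 17.5 FPKM (log2 1.89 ± 0.18, adjusted p = 1.8e-04, edgeR). *Crct1*, a gene of the same complex, was at 1.76, 1.26 and 3.85 FPKM against 19.8, 18.9 and 19.1 FPKM (log2 3.06 ± 0.30, adjusted p = 2.5e-04, edgeR). *Cnfn*, which encodes cornifelin, showed a log2 fold change of 3.13 ± 0.32 (adjusted p = 3.3e-04, edgeR), and *Rptn*, the gene for repetin, one of 3.88 ± 0.45 from 1 to 4 counts in controls and 29 to 34 in mutants (adjusted p = 6.3e-04, edgeR). The list held 1 call without control sample 1, 1 without control sample 2 and 3 without mutant sample 2.

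The classical partners were read whatever their values. *Ivl*, the gene for involucrin, an early scaffold of the envelope, was at 6.42, 2.96 and 4.84 FPKM in controls and 10.2, 8.13 and 11.6 FPKM in mutants (log2 1.07 ± 0.24, adjusted p = 0.017, edgeR) and did not pass the threshold. *Lor*, the gene for loricrin, the main envelope protein of skin, had 0, 0 and 2 counts in controls and 1, 2 and 6 in mutants and was too low to be tested. *Ppl* and *Evpl*, the genes for periplakin and envoplakin, which anchor the envelope, had log2 fold changes of -0.02 and -0.25.

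Transglutaminases, which form the cross-links, and the cystatins found in the envelope gave no call among 11 tested genes by edgeR, a count that does not depart from the 1.37% of all tested genes. At an unadjusted p under 0.05 there were 5 higher and 0 lower, and DESeq2 called 3, against 15.1% and 2.34% of all tested genes as higher. *Stfa2* entered through the mutants alone, and the other 10 had a median log2 fold change of 0.28, with 4 higher at an unadjusted p under 0.05. *Tgm1*, the transglutaminase of cornifying cells, was at 28.3, 25.5 and 28.8 FPKM in controls and 41.6, 41.2 and 40.0 FPKM in mutants. All mutants lay above all controls, but at log2 0.57 ± 0.079 the difference was under the 2-fold limit and its adjusted p was 0.0017 (edgeR).

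Sprr promoters are known to be driven by AP-1, Ets and Klf factors, and a list of 28 genes was read next that holds these, the NF-κB subunits and other epithelial factors such as *Sp1*, *Stat3*, *Cebpb*, *Pou2f3* and *Grhl3*. Of 27 tested, 2 rose, *Jun* and *Fosl1*, and 1 fell, *Rela*, against 1.31% and 0.0553% of all tested genes. *Rela* is the gene removed in the mutants, so its fall was fixed by the design. *Fosl1* entered through the mutants alone, and without it 1 of 26 rose. The median log2 fold change of the list was 0.14. At an unadjusted p under 0.05 there were 10 higher and 3 lower, *Rela* among the lower, against 15.1% and 13% of all tested genes. Without *Fosl1* 9 were higher. Without control sample 2 the list held 1 call, a lower one. *Jun*, which encodes a partner in AP-1 dimers, was at 20.4, 19.8 and 17.8 FPKM in controls and 61.8, 55.7 and 46.8 FPKM in mutants (log2 1.50 ± 0.11, adjusted p = 4.9e-05, edgeR). *Fosl1*, which encodes the AP-1 subunit Fra-1, had no count in controls and was at 0.85, 1.44 and 1.50 FPKM in mutants, at least 13.9-fold higher than a level of 3 counts (adjusted p = 5.3e-04, edgeR), and it entered the test only through the mutants. The other AP-1 genes tested did not pass, with log2 fold changes of 0.27 for *Fos*, 0.47 for *Fosb*, -0.27 for *Fosl2*, 0.52 for *Junb* and -0.06 for *Jund*. For *Junb* all mutants, at 190 to 281 FPKM, lay above all controls, at 148 to 175 FPKM (adjusted p = 0.035, edgeR). The related *Atf3* did not pass either, at 0.28, 0.36 and 0.44 FPKM in controls and 1.14, 0.98 and 0.69 FPKM in mutants (log2 1.36 ± 0.31, adjusted p = 0.018, edgeR). There too all mutants lay above all controls. *Klf4* (-0.09), a factor of terminal differentiation, and the epithelial Ets factors *Elf3* (0.02) and *Ehf* (0.06) were not called. The Ets gene *Ets1* was at 0.69, 0.47 and 0.50 FPKM in controls and 1.08, 1.36 and 1.53 FPKM in mutants and missed the threshold on its adjusted p (log2 1.27 ± 0.21, adjusted p = 0.0039, edgeR).

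Control sample 3, the control with the most *Sprr1a*, was compared with the other controls gene by gene, a comparison made after its values were seen. It had 11 tested genes with at least 50 counts that were at least 2-fold above both other controls, which is 0.0868% of those tested, against 10 for control sample 1 and 7 for control sample 2. For 6 of the 11, *Sprr1a* included, all mutants lay above all controls, against 0 of 10 and 1 of 7 for the other controls and 17.3% of all tested genes. The other 5 were *Krt16*, a keratin of wounded and stressed epidermis, *Alox12b*, a lipoxygenase of the skin barrier, and the envelope genes *Cnfn*, *Crct1* and *Cdsn*. *Krt16* was at 14.4, 10.4 and 99.2 FPKM in controls and 1841, 1369 and 1144 FPKM in mutants. *Alox12b* was at 0.43, 0.33 and 1.74 FPKM in controls and 8.86, 4.33 and 6.73 FPKM in mutants. Both were higher in control sample 3 than in the other controls by at least as large a factor as *Sprr1a*, which was 3.39 times the next control in CPM. *Sprr1b* had no count in that sample and *Sprr3* had its 1 control count there. What set control sample 3 apart was not tested.

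**Figure D4:**
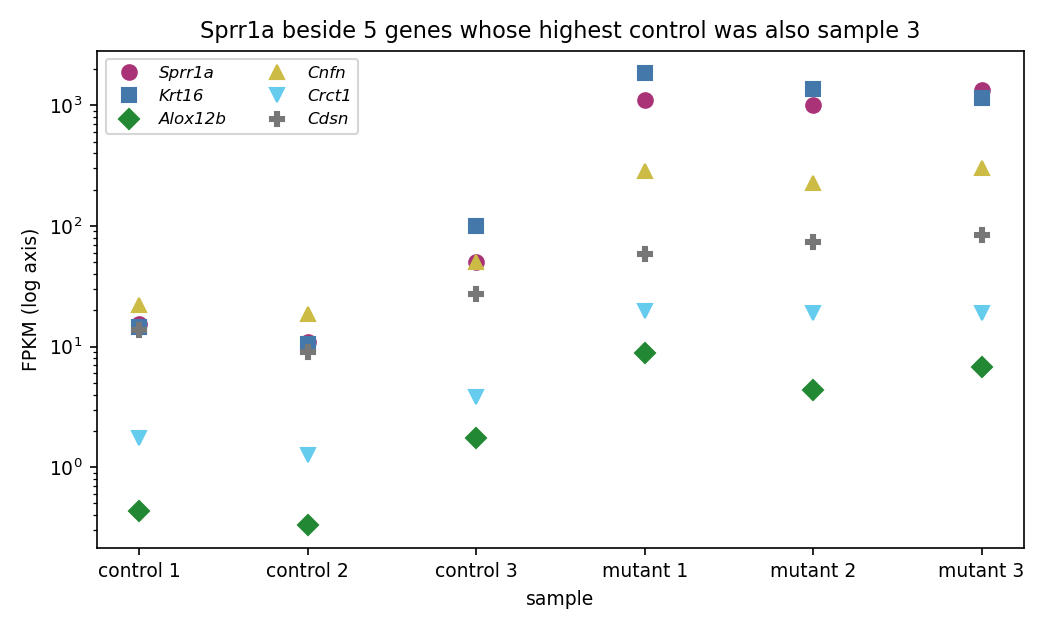
FPKM (log axis) of *Sprr1a* and of 5 genes that were also at least 2-fold higher in control sample 3 than in the other controls and higher in all mutants than in all controls, for each of the 6 samples. In control sample 3 *Sprr1a* is at 50.6 FPKM, between the other controls and the mutants, and the other 5 genes lie between as well. For all genes drawn this follows from how they were chosen.

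The genes most like the Sprr genes over the 6 samples were found by Pearson's r between log2 CPM and the mean standardised profile of the Sprr genes. The 6 highest were *Pip5k1a*, *Apbb2*, *Slc35e4*, *Eif4e3*, *Pnpt1* and *Adamts1*, with r from 0.997 to 0.999. The samples form 2 groups, so any gene that separates the groups evenly comes close, and 50 genes had an r over 0.99. The likeness is one of pattern and not of size. *Slc35e4*, a gene of a solute carrier family, was at 2.63, 2.44 and 2.77 FPKM in controls and 6.73, 6.36 and 6.36 FPKM in mutants. *Pip5k1a*, a phosphoinositide kinase gene, differed least, from 20.1 to 20.4 FPKM in controls and from 24.2 to 25.1 FPKM in mutants.

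Markers of other cells were read beside the Sprr genes. The corneal keratin *Krt12* was at 18871 to 21194 FPKM in controls and 17005 to 19245 FPKM in mutants, so the labelled tissue was present in all samples. In the corneal list of 8 genes *Krt14*, the keratin of basal cells, rose to 1474 to 2204 FPKM from 150 to 203 FPKM, and *Clu*, the gene for clusterin, rose too. The other 6 had log2 fold changes below 0. In CPM all mutants lay below all controls in 5 genes, *Krt12* included, although its FPKM ranges overlapped. The share of all tested genes with all mutants below all controls was not computed. At an unadjusted p under 0.05 there were 2 higher and 3 lower, against 15.1% and 13% of all tested genes. The list's summed level was 89500 to 99438 CPM in controls and 83159 to 88489 CPM in mutants. Of the conjunctiva and goblet cell list 7 of 9 genes were in the table, with sums of 2246 to 2629 CPM in controls and 1664 to 1975 CPM in mutants, none called among 5 tested by edgeR or DESeq2 (2 lower at an unadjusted p under 0.05), and *Muc5ac* at no more than 1 count. Of the epidermis list 7 of 8 were in the table, with sums of 13.9 to 16.1 and 11.7 to 14.6 CPM that were mostly *Krt1* and *Krt10*, with none called among 2 tested by edgeR or DESeq2 (0 at an unadjusted p under 0.05) and *Krt2* at no more than 1 count. *Flg*, of the same list, had 2, 4 and 1 counts in controls and 0, 12 and 9 in mutants, and *Lor* is given above.

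Stromal keratocyte markers, 9 of 9 in the table, summed to 1.04 to 1.49 CPM in controls and to 8.73, 5.40 and 1.90 CPM in mutants 1, 2 and 3. None of the 2 tested was called by edgeR (1 at an unadjusted p under 0.05, and 1 by DESeq2), and the defining *Kera* had at most 2 counts in any sample. *Dcn* had 3, 2 and 1 counts in controls and 66, 34 and 14 in mutants (adjusted p = 0.0051, edgeR). It entered the test only through the mutants, so its direction was fixed by the filter. The 1 unadjusted p under 0.05 in this list was that of *Dcn*. *Lum* had 0, 1 and 0 counts against 23, 10 and 0, and *Col1a1* had 1, 1 and 2 against 23, 23 and 6. Leukocyte markers, 10 of 10 in the table, summed to 324 to 355 CPM in controls and to 489, 342 and 269 CPM in mutants, with none of 4 tested called by edgeR or DESeq2 (1 at an unadjusted p under 0.05), and *Itgam* alone made up 88.0% to 92.5% of the list's counts. *Lyz2*, of the same list, had 0, 0 and 1 counts in controls and 23.7, 13 and 3.79 in mutants. *Ptprc* had 6, 6 and 1 counts in controls and 14, 2 and 9 in mutants. The endothelial sums were 0.202 to 0.627 and 0.618 to 0.898 CPM. The stromal sum and the leukocyte sum, which was mostly *Itgam*, were highest in mutant sample 1 and lowest among mutants in sample 3. *Sprr1a* was highest in mutant sample 3. *Sprr1b* and *Sprr3* were highest in mutant sample 1. The part of these cells in the Sprr levels was not tested.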

How the data were processed

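RNA from corneal epithelium of 3 control and 3 mutant mice was sequenced by the study, which names depletion of ribosomal RNA and single-end reads of 50 bases on BGISEQ-500, while the labels' protocol names Illumina TruSeq. Reads were filtered with SOAPnuke, aligned with Bowtie2 (2.2.5) and quantified with RSEM (1.2.12). The expected counts and FPKM values per gene and sample were deposited by the authors in a single table. The labels name mm9, but the table's coordinates are those of GRCm38. Columns of group means and of the authors' own comparison (DEGseq fold changes, p-values and q-values) were not used.

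Expected counts, of which 31.5% to 32.2% per sample were not whole (tolerance 0.001), were rounded, filtered with filterByExpr (minimum count 10, total 15), scaled by TMM and tested with edgeR's quasi-likelihood test (4.0.16, R 4.3.3) with Benjamini-Hochberg adjustment over 12667 genes. Thresholds were those of the study. Folds of the Sprr genes are ratios of mean TMM-scaled CPM, and 3 counts equalled 0.150 to 0.157 CPM. The test was checked on simulated data. Alternatives used DESeq2 (1.42.0), limma (3.58.1) on log2(FPKM + 1) and log2(FPKM + 0.1), other scalings, filters and thresholds, a replicate block, and each sample left out. The Sprr genes, the gene lists and the marker lists were chosen with earlier results of these data known. Named genes were the Sprr genes, *Rela*, up to 4 called genes per list with the smallest adjusted p, the AP-1 genes, *Klf4*, *Elf3*, *Ehf*, *Ivl*, *Lor*, *Tgm1* and the 6 most alike genes. The other genes named (*Ppl*, *Evpl*, *S100a8*, *S100a9*, *S100a4*, *Atf3*, *Ets1*, *Stfa2*, factors named without values, *Rptn* among the envelope precursors, the genes of control sample 3 and single markers) were chosen after their values were seen. Transcripts were read from GENCODE M21 and upstream sequences from RefSeq.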

Additional observations from a re-analysis of the deposited data

How the results depend on the processing

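The log2 folds stayed within 5.45 to 5.48 for *Sprr1a* and 10.36 to 10.38 for *Sprr1b* under other scalings, and were 5.80 and 10.32 with geometric in place of arithmetic means. On deposited FPKM *Sprr3* gave 7.72 in place of 4.61, since its 1 control count was then used as it stands. FPKM gives no value for *Sprr1b* and no setting gives one for *Sprr4*, where controls are at 0. With 1 sample left out at a time, log2 folds ranged from 5.10 to 6.46 for *Sprr1a*, the highest without control sample 3, from 10.19 to 10.61 for *Sprr1b* and from 4.33 to 4.77 for *Sprr3*. Of the 3 Sprr genes called, between 1 and 3 were called with 1 sample left out, the 1 without control sample 2, and 1 was called where at least 10 counts in every sample were asked for. That filter left *Sprr1b* and *Sprr3* untested.

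Over all genes, 173 were called, against 330 by DESeq2, 114 by limma on log2(FPKM + 1) and 444 at an adjusted p of 0.05, and 36 to 193 with 1 sample left out (36 without control sample 2, 56 without control sample 3, 88 without control sample 1). The 6 calls in the epidermal differentiation complex became 12 by DESeq2, 10 with no filter, 12 at an adjusted p of 0.05, and 0 to 11 with 1 sample left out. The 1 call among the Sprr2 genes became 5 by DESeq2, 4 with no filter, 0 where each sample had to hold 10 counts or more, 3 by limma on log2(FPKM + 0.1), 5 at an adjusted p of 0.05, and 0 to 5 with 1 sample left out. The 5 calls among envelope precursors ranged from 1 to 5 with 1 sample left out. The 0 calls among transglutaminases and cystatins became 3 by DESeq2, 1 with no filter, 1 by limma on log2(FPKM + 0.1), 3 at an adjusted p of 0.05, and 0 to 2 with 1 sample left out. The 3 calls among promoter factors became 5 at an adjusted p of 0.05, and 1 to 3 with 1 sample left out. The looser threshold gives more calls by construction, and asking for 10 counts in every sample left no Sprr2 gene to test. For the other settings, and for the rises without mutant sample 1 (193 over all genes, 11 in the complex, 5 among the Sprr2 genes), the cause was not tested.

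Control and mutant samples share replicate numbers, but deviations of same-numbered samples from their group means correlated at 0.019, 0.048 and -0.046, so the numbers were not treated as pairing the samples. With the replicate number as a block, 176 genes were called, 142 of them among the 173, with 4 among the Sprr2 genes and 1 among transglutaminases and cystatins. Each group has 3 samples, and levels of *Sprr3* and *Sprr4* rest on few counts.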
